A study of Rattus norvegicus with 10 samples.

Results

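Genes for potassium, sodium and calcium channels were followed in rat liver on whole-genome 3' expression arrays. The set takes every probe set that carries a single gene symbol starting with Kcn, Scn or Cacn, and represents each gene by its brightest one, judged on the mean of the 10 arrays together. It holds 115 genes out of 14217 measured genes, read by 184 of 31042 probe sets, of which 75 genes are potassium, 16 sodium and 24 calcium channel genes. The vehicle group is 5 livers of female Harlan Sprague-Dawley rats given corn oil alone by gavage, listed as 0 mg per kg. The other group is 5 livers of the same strain and sex given indole-3-carbinol (I3C), a breakdown product of glucosinolates in cruciferous vegetables, in corn oil by gavage at 300 mg per kg. Both groups were dosed on 5 days per week for 13 weeks according to the sample labels, although the design text of the series describes a study of 2 years. The age of the rats is not given in the sources used here, and with no animal numbers in the labels the p-values measure only the spread between these samples.

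Ion channels are membrane pores that let chosen ions run down their gradients. Potassium channels set the resting potential, voltage-gated sodium and calcium channels carry the action potential and calcium entry of excitable cells, and epithelial sodium channels take up sodium in kidney and lung. Hepatocytes do not fire action potentials, but they use potassium channels in volume regulation, bile flow and sodium-coupled uptake. Most of these genes are best known from brain, heart, muscle, pancreas and kidney.

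The arrays were of liver by their markers. Albumin (Alb) read 15.11 in both groups on the log2 scale of the deposited values, and all 9 measured hepatocyte markers stood above the dark level defined below. Single hepatocyte markers differed by -0.33 to 0.38 between the groups, and by the test given below 1 rose and 1 fell with I3C. Array medians ran from 6.21 to 6.29. RNA integrity was read from GAPDH, as the signal of its 3' control probe set less that of its 5' one. This was 0.45 ± 0.12 for vehicle livers and 0.23 ± 0.05 for I3C livers (SD, n = 5), a difference that a two-sided exact permutation test gave a p of 0.00794, the lowest possible with 5 arrays a side (adjusted p = 0.0423 over 16 measures of the arrays). The same measure of beta-actin was 1.59 ± 0.12 and 1.40 ± 0.14 (SD, n = 5; exact permutation p = 0.0476, adjusted p = 0.109). Vehicle 5 had the largest GAPDH value of all arrays, 0.65, and the smallest beta-actin value of the vehicle arrays, 1.45. The GAPDH ranges, 0.32 to 0.65 in vehicle and 0.16 to 0.29 in I3C arrays, did not overlap. In models with GAPDH as a covariate, RNA quality and dosing therefore cannot be told apart. Whether a call held or ended in such a model, as given below, is thus no measure of the part of RNA quality. The mean level of the 5 measured Kupffer cell markers was also lower with I3C, at 8.53 to 8.99 against 9.09 to 9.44 (same p-values), as was that of the smooth muscle markers given below.

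Few channel genes read above the background of the array. The table used here holds no detection calls, so 58 measured genes known from retina, lens, testis, pituitary, brain and other tissues served as a reference, with means from 3.53 to 7.64 and a median of 4.93. Their 90th percentile, 6.41 on the log2 scale, is called the dark level, and by this construction 6 of the 58 stood above it. Of the 115 channel genes 22 did, or 19.1%, against 64.4% of all 14217 genes, and the median channel gene lay at 5.48 where the median gene lay at 7.29. Of the remaining 93, Kcnj15 and Kcnab2 stood above it in the vehicle mean, at 7.40 and 6.41, and 91 channel genes were below it in the means of both groups. Nearest to the limit were Kcnh4 at 6.35 and Kcnq5 at 6.41, both voltage-gated potassium channels. The reference genes were not all free of change: Gnat1 read 5.87 in vehicle and 6.64 in I3C livers (limma adjusted p = 0.000811). Its I3C mean was thus above the dark level. Krt10, another reference gene, read 6.86 on vehicle 4.

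Signal above the dark level was spread over most classes of channel. It was read for 4 of 11 tandem-pore-domain potassium channels, which carry background potassium current: Kcnk2 (7.83), Kcnk3 (7.55), Kcnk6 (7.08) and Kcnk5 (6.99), as means over all 10 arrays. It was read for 4 of 10 calcium channel pores, led by Cacna1a (7.31), the pore of neuronal P/Q-type channels, and for 3 of 15 inward rectifiers, the brightest being Kcnj3 (6.87), a G protein-gated potassium channel. Of 31 voltage-gated potassium pores 2 stood above, Kcnh3 at 8.0 and Kcnq5, and of 13 potassium auxiliary subunits also 2, Kcnip3 at 7.86 and Kcne3 at 6.97. Kcnip3 is a calcium-binding protein that also acts as a transcriptional repressor, and Kcne3 is a beta subunit that pairs with Kcnq1 in epithelia. Kcnn1 (7.04) and Kcnt1 (7.01), potassium channels activated by calcium and sodium, stood above among 5 of their class. The sodium set gave Scn3b (7.20) among 3 beta subunits and Scn10a (6.59) among 9 pores. Scn4b, another beta subunit, is among the 22 only through its I3C arrays, and its vehicle mean of 5.12 was below the dark level. Scnm1 (7.18) shares the prefix but encodes a splicing factor. Cacng2 (7.29) was 1 of 14 calcium auxiliary subunits. Some of these shares, such as 6.45% of voltage-gated potassium pores and 7.14% of calcium auxiliary subunits, are no larger than the 6 of 58 among the reference genes.

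Levels of different probe sets are not comparable, so these readings are no ranking of transcripts, and probe sets of 1 gene often disagreed. For the 44 channel genes with several probe sets, the brightest and dimmest differed by a median of 1.38 on the log2 scale and by up to 3.89. The widest gap was that of Kcnk2, whose second probe set read 3.94. Of the 14 genes above the dark level that have several probe sets, 1 had a second probe set above it, the T-type calcium channel pore Cacna1i (6.83 and 6.70). When each gene was taken as the mean of its probe sets, 13 channel genes stood above the matching limit, and against the brightest reference gene, Lhb at 7.64, only Kcnh3, Kcnip3 and Kcnk2 did.

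**Figure D1:**
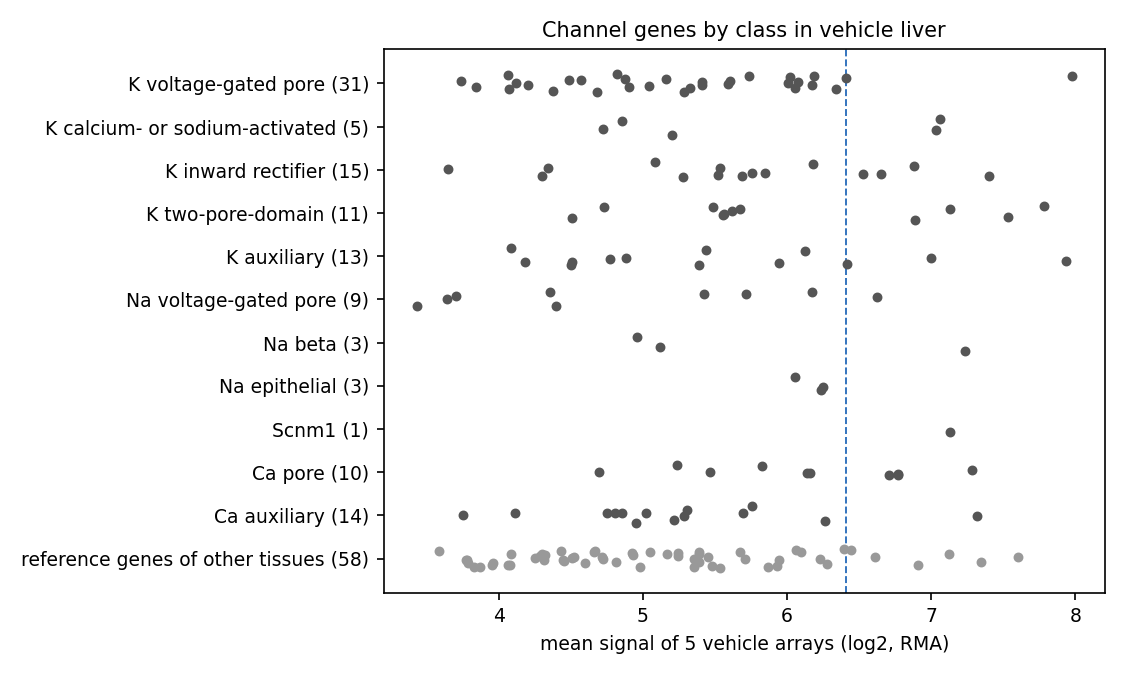
Mean log2 signal of each channel gene over the 5 vehicle arrays, 1 point per gene, by class of channel, with the 58 reference genes of other tissues in the bottom row and the number of genes in brackets. The dashed line is the dark level of 6.41, and most points of every class with more than 5 genes lie to its left.

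Channels with known roles in liver or bile duct were mostly at background. Kcnq1, whose current restores the potential during sodium-coupled uptake, read 5.32 ± 0.20 in vehicle and 5.37 ± 0.13 in I3C livers (SD, n = 5). The calcium-activated channels of bile duct cells read 4.84 for Kcnn4, 4.70 for Kcnn3 and 5.21 for the large-conductance Kcnma1 as means over 10 arrays. The epithelial sodium channel subunits Scnn1a (6.26), Scnn1b (6.07) and Scnn1g (6.27) lay just under the dark level. Kcnk5, an acid-sensitive background channel of epithelia, was above it on every array, with 6.95, 7.02, 6.71, 6.86 and 6.90 in vehicle and 7.47, 7.16, 6.93, 7.0 and 6.91 in I3C livers. The highest value belonged to I3C 1, the groups overlapped, and the difference of 0.21 ± 0.11 (SE) did not pass (limma adjusted p = 0.371).

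Between the groups 2 of the 115 channel genes changed, Scn4b and Kcnj15, and 0 others passed. The test was limma, with p-values adjusted by Benjamini and Hochberg's method across the whole table of 31042 probe sets and a threshold of 0.05, ± after a difference is its SE, and "rose" and "fell" are used only past that threshold. Of the 115, 1 rose and 1 fell, so that 1.74% were called where 6.43% of all genes were (3.32% rose, 3.11% fell). Genes at or below the dark level were rarely called at all, 1.26% of 5062, against 9.28% of 9155 above it. At an unadjusted p under 0.05, 4 channel genes passed (3.48%, against 19.8% of all genes). Both changes were known when the set was drawn up.

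The starts of Scn4b and Kcnj15 differ in base composition, and are shown because these are the channel genes that passed the test. Both stretches, taken from RefSeq on build GRCr8, run from 250 bases before to 50 bases after the annotated start, with capitals marking each CG dinucleotide. Scn4b lies at chr8:54343623-54343922 and Kcnj15 at chr11:48070700-48070999, each on the plus strand.
Scn4b: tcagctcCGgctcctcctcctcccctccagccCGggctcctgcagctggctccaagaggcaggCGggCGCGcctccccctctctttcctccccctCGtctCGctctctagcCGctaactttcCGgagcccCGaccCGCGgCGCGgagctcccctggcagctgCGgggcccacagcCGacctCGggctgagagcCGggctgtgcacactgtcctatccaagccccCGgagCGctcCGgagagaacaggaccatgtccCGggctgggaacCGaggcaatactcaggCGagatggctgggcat
Kcnj15: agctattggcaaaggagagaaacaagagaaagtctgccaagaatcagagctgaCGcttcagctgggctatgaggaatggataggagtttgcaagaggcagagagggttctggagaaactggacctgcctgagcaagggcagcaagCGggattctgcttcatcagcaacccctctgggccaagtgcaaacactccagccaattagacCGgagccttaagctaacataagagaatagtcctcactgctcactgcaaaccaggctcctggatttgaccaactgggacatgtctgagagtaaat
The Scn4b stretch is 70% G and C with 24 CG dinucleotides, more than 80.5% of all promoters in the table, whose median is 7. The Kcnj15 stretch is 50.3% G and C with 3. The motif GCGTG, the core recognised by the aryl hydrocarbon receptor, was searched on both strands and is in neither stretch, while 31.1% of 27457 promoters of this length hold it, and 31 of the 80 channel promoters in the table. The letters TGACNNNGC, the core of the antioxidant response element, are in neither as well and in 12.2% of promoters, and TGATGNAA is in neither and in 3.82%. These windows say nothing of sites farther away.

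Scn4b, a sodium channel beta subunit with an adhesion domain, moved from the dark range to a bright signal. Its probe set read 5.25, 4.78, 5.07, 5.26 and 5.23 in vehicle livers, and 10.40, 8.94, 8.58, 9.02 and 9.16 in I3C livers. Every vehicle array was below the dark level, every I3C array was above the brightest of the 58 reference genes, and I3C 1 stood above the other dosed livers. The group means were 5.12 ± 0.20 and 9.22 ± 0.69 (SD, n = 5), a rise of 4.10 ± 0.26 (limma adjusted p = 2.62e-06) or 17.2-fold. In vehicle livers 30% of all probe sets read lower, and in I3C livers 88.3% did. The vehicle level lies in the background range, so the fold is set by that floor. Scn4b has 1 probe set here, and in the model with the GAPDH difference as a covariate it rose by 4.22 ± 0.45 (adjusted p = 0.00138).

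None of the measured subunits that work with Scn4b passed the test. Beta subunits fine-tune gating of the voltage-gated pores, and Scn4b binds them through a disulfide bond. All 9 measured pores, Scn1a to Scn11a, differed by -0.16 to 0.15, and 8 of them read below the dark level. The exception, Scn10a, a pore of sensory neurons, was 6.62 ± 0.25 in vehicle and 6.56 ± 0.07 in I3C livers (SD, n = 5). The other beta subunits differed by 0.08 ± 0.09 (Scn2b) and -0.07 ± 0.13 (Scn3b). Bace1, the protease that cuts beta subunits, read 6.51 and 6.29 with a difference of -0.22 ± 0.09, which did not pass.

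Markers of the tissues best known for Scn4b read in the dark range. Of 8 measured markers of striated and heart muscle 0 stood above the dark level, and their mean level ran from 4.60 to 4.74 in vehicle and from 4.51 to 4.71 in I3C arrays. Myh6, Myl2 and Tnnt2 of this list are also reference genes that set the dark level. For these genes a place under it was therefore partly fixed beforehand. For 8 neuronal markers, again with 0 above, the ranges were 4.45 to 4.71 and 4.49 to 4.64. Acta1 (3.86 and 3.92) and Snap25 (4.92 and 4.97), the defining markers, differed by less than 0.1.

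Kcnj15, an inward-rectifying potassium channel of kidney, stomach and pancreas, moved the other way. It read 6.80, 6.83, 7.94, 8.97 and 6.48 in vehicle livers, and 4.80, 4.77, 4.45, 4.61 and 4.60 in I3C livers. All vehicle arrays were above the dark level and all I3C arrays below it, and vehicle livers spread over a far wider range than dosed ones. The means were 7.40 ± 1.03 and 4.65 ± 0.14 (SD, n = 5), a fall of 2.76 ± 0.38 (limma adjusted p = 0.000985), which is 6.76-fold on these readings. The I3C level lies in the background range, so that floor sets this fold too. In whole liver, fewer cells of a type and less RNA per cell cannot be told apart. The call held with the GAPDH difference in the model (-3.06 ± 0.63, adjusted p = 0.0441) and without vehicle 4, the highest array (-2.37 ± 0.23).

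A second probe set of Kcnj15 showed no such fall. It read 5.43, 5.55, 5.55, 5.51 and 5.60 in vehicle and 5.75, 5.70, 5.22, 5.73 and 5.72 in I3C livers, all below the dark level, with a difference of 0.09 ± 0.10 (adjusted p = 0.744). The mean of both probe sets fell by 1.33 ± 0.20. Other inward rectifiers that can join or resemble this channel did not pass: Kcnj16, known to form mixed channels with it, read 5.08 ± 0.08 and 5.11 ± 0.25 (SD, n = 5), and Kcnj10 read 4.34 ± 0.14 and 4.29 ± 0.23 (SD, n = 5). Among 9 measured markers of pancreatic acinar cells, of which 3 stood above the dark level, 1 fell. Their mean level was 5.99 to 6.2 in vehicle and 5.75 to 6.00 in I3C arrays (exact permutation p = 0.0159, 0.0508 after adjustment over 16 measures). The marker that fell was Cpa1, a carboxypeptidase (11.54 and 9.44), and the defining marker Prss1 read 4.44 and 4.4. Single markers differed by -2.10, that of Cpa1, up to 0.49, so the lower mean level leans on 1 gene. The part of acinar cells in the fall of Kcnj15 was not tested.

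**Figure D2:**
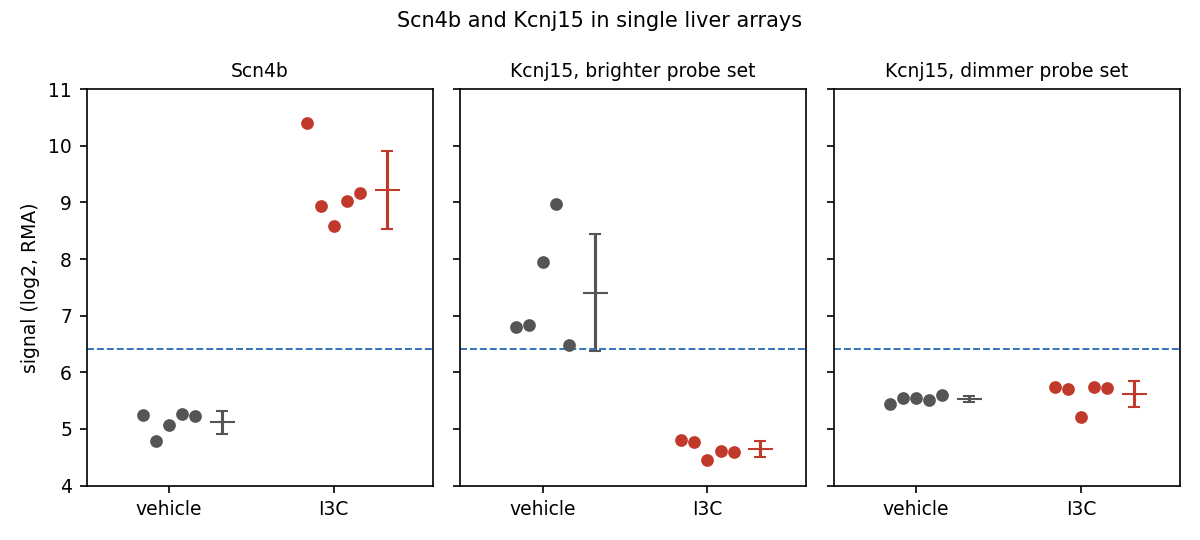
Log2 signal of Scn4b and of both Kcnj15 probe sets on each array (points), with the group mean and SD beside them (bars, n = 5) and the dark level of 6.41 (dashed). Scn4b crosses the dark level upward in all 5 I3C livers. The Kcnj15 probe set that is brighter over all 10 arrays, through its vehicle values, crosses it downward, and the dimmer one stays below it.

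The other 113 channel genes moved little in either direction. Their differences ran from -0.22 to 0.21, with 58 higher and 55 lower in I3C livers and a median of 0.0016, and their median absolute difference was 0.051 against 0.080 in the 13303 genes that did not pass. For all 113 the 95% interval of the difference lay within 1.5-fold either way, which was so for 95.7% of those 13303 genes. The spread between arrays of a group was like that of other genes, with a median SD of 0.13 and 0.14. Of the 113, 21 stood above the dark level and 92 did not, and a change in a transcript that is not read above background could go unseen.

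Beside Kcnk5, the widest of these differences and the lowest p-values belonged to dim probe sets. Cacnb2, a calcium channel beta subunit, was at -0.22 ± 0.10 (adjusted p = 0.338), Kcnmb4, a subunit of the large-conductance channel, at -0.18 ± 0.08 (adjusted p = 0.267), and Kcnab2, a subunit of voltage-gated channels, at -0.18 ± 0.08 (adjusted p = 0.312). Kcnj13, an inward rectifier of transporting epithelia, was at 0.14 ± 0.06 (adjusted p = 0.30). The second probe set of Scnn1a, the alpha subunit of the epithelial sodium channel, differed by 0.26 ± 0.10 (adjusted p = 0.186), while its brighter one differed by 0.06 ± 0.10. None of these passed, and the intervals of Kcnmb4 and Kcnj13, the only 2 among the 113 that left out 0, reached to -0.35 and 0.28.

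Among classes, the medians stayed close to 0. The 31 voltage-gated potassium pores had a median difference of 0.015 within -0.14 to 0.15, the 11 tandem-pore-domain channels 0.037 within -0.10 to 0.21, and the 10 calcium pores 0.042 within -0.08 to 0.12. The 3 epithelial sodium channel subunits differed by 0.03 to 0.06. The 14 calcium auxiliary subunits had a median of -0.046 within -0.22 to 0.08.

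**Figure D3:**
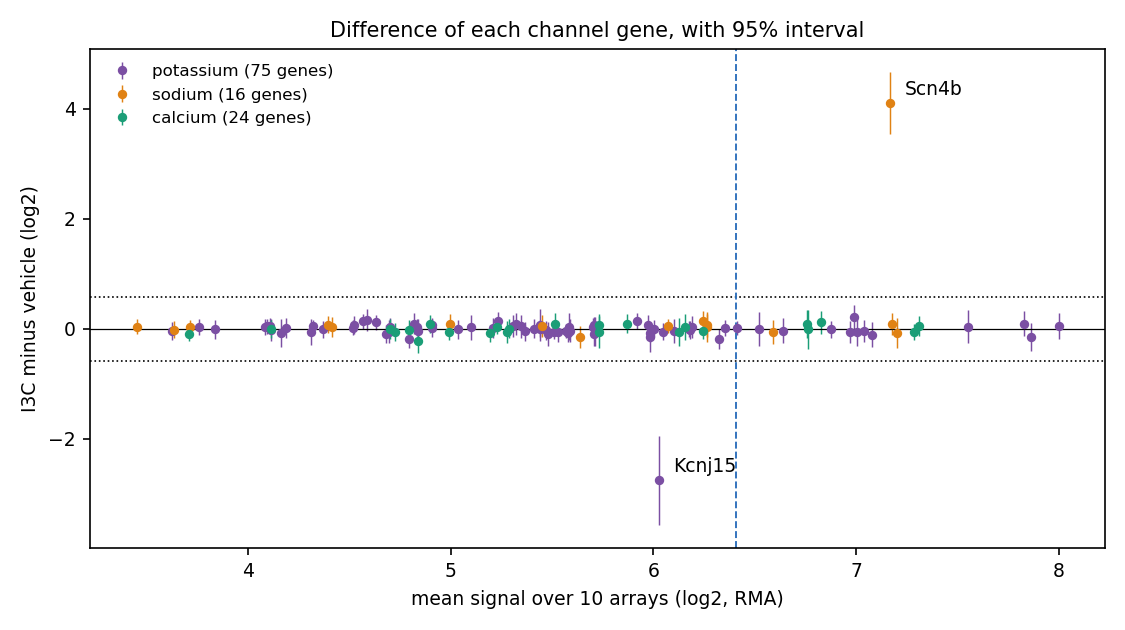
Difference between I3C and vehicle livers (log2) against the mean log2 signal over 10 arrays for each of the 115 channel genes, with 95% intervals from limma. Dotted lines mark a 1.5-fold difference and the dashed line the dark level, and all genes except Scn4b and Kcnj15 have intervals inside the dotted lines.

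Among genes that work with channels, the regulatory subunits of the ATP-sensitive potassium (KATP) channel fell while its pores did not pass. KATP channels join pores of Kcnj8 or Kcnj11 to the sulfonylurea receptors Abcc8 or Abcc9 and open when ATP is low. Abcc8 read 6.32, 6.70, 6.76, 6.70 and 6.93 in vehicle and 5.68, 5.81, 6.05, 6.02 and 5.99 in I3C livers. The groups did not overlap, as in 8.67% of all genes, and it fell by 0.77 ± 0.11 (adjusted p = 0.00136). Abcc9 read 6.84, 6.93, 6.38, 7.13 and 6.36 against 6.22, 6.10, 5.99, 6.04 and 6.30, also without overlap, a fall of 0.59 ± 0.14 (adjusted p = 0.0283). Both receptors were below the dark level on every I3C array, and the 10-array mean of Abcc8, 6.30, was below it too.

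The pores gave other values. Kcnj8 read 6.72, 6.77, 6.46, 6.42 and 6.90 in vehicle and 6.58, 6.38, 6.69, 6.72 and 6.73 in I3C livers, with a difference of -0.04 ± 0.10 and an interval from -0.26 to 0.19. Kcnj11, under the dark level, read 6.18 ± 0.06 and 6.18 ± 0.11 (SD, n = 5), with an interval from -0.15 to 0.15. The difference between the response of the receptors and that of the pores was not tested. The call of Abcc8 ended with the GAPDH difference in the model (-0.60 ± 0.18, adjusted p = 0.145). With the beta-actin difference in its place Abcc8 fell by 0.85 ± 0.14 (adjusted p = 0.00894). The call of Abcc9 ended with either, at -0.88 ± 0.21 (adjusted p = 0.0827) with GAPDH and -0.50 ± 0.18 (adjusted p = 0.209) with beta-actin, and without moderation of the variance (adjusted p = 0.115). With GAPDH both the size of the difference and its SE were larger than in the main fit (-0.59 ± 0.14). The Abcc9 call also ended without vehicle 1, 2 or 4 or I3C 1, 2, 3 or 4 (adjusted p from 0.0516 to 0.0728), and its other probe sets differed by -0.33 ± 0.10 and -0.02 ± 0.09.

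Smooth muscle, which carries Kcnj8 and Abcc9 in vessel walls, gave a lower mean level of its markers. Single markers differed by -0.50, that of Mylk, up to 0.04. The mean level of 7 markers was 7.04 to 7.16 in vehicle and 6.91 to 7.03 in I3C arrays (exact permutation p = 0.00794, 0.0423 after adjustment), with 1 marker, the kinase Mylk, past the threshold at -0.50 ± 0.06. The defining marker Acta2 read 7.04 and 6.87, and Cnn1 and Lmod1 were below the dark level. The 6 stellate cell markers had a mean level of 7.31 to 7.55 in vehicle and 7.14 to 7.33 in I3C arrays (exact permutation p = 0.0159, 0.0508 after adjustment), and 1 of them fell, Lrat, which esterifies retinol (-0.51 ± 0.10, limma adjusted p = 0.00889). Single stellate cell markers differed by -0.51, that of Lrat, up to 0.10. For the 5 sinusoidal endothelial markers the ranges were 9.68 to 9.93 and 9.57 to 9.77 (exact permutation p = 0.0397, 0.106 after adjustment), with 0 past the threshold. For the islet markers, where Abcc8 and Kcnj11 are best known, the ranges were 5.32 to 5.62 and 5.36 to 5.60, with 1 of 6 above the dark level. The part of these cell types in the fall of Abcc8 and Abcc9 was not tested.

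**Figure D4:**
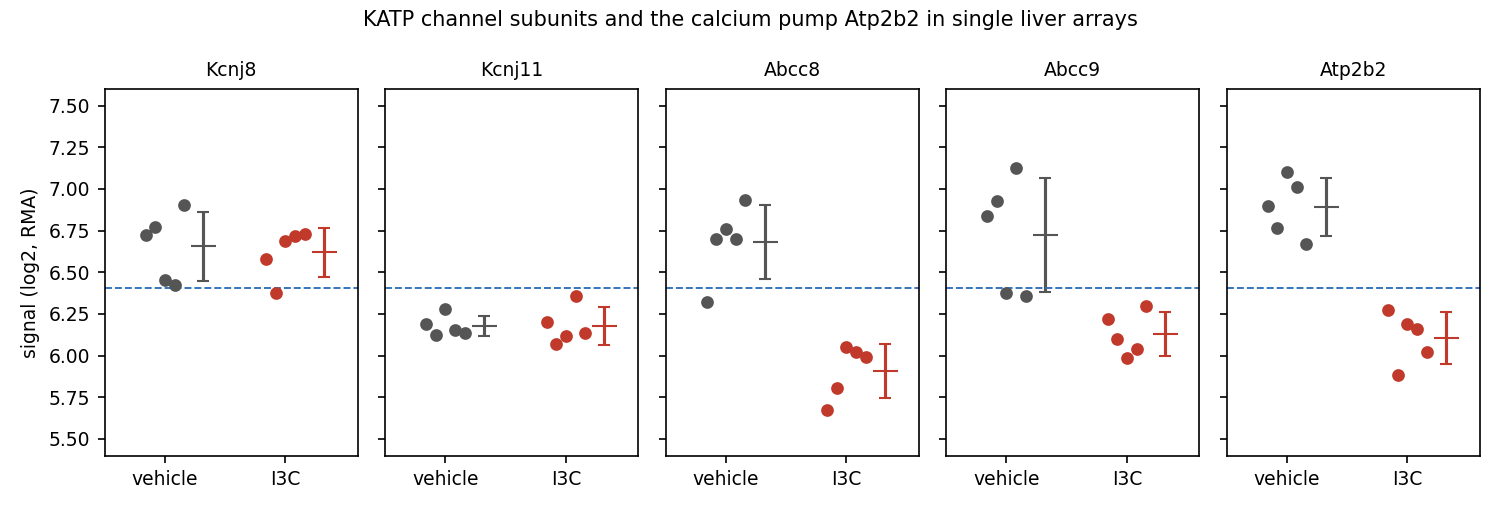
Log2 signal on each array (points) of the KATP pores Kcnj8 and Kcnj11, the receptors Abcc8 and Abcc9 and the calcium pump Atp2b2, with group mean and SD (bars, n = 5) and the dark level (dashed). The groups overlap for both pores and do not overlap for Abcc8, Abcc9 and Atp2b2.

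Other transport genes around the channels moved in a few cases. Of 109 measured partner genes in 4 lists 1 rose and 6 fell. The share of all genes called was 6.43%. Of 27 pumps and exchangers 3 fell. Atp2b2, a plasma membrane calcium pump, read 6.90, 6.77, 7.10, 7.01 and 6.67 in vehicle and 6.28, 5.88, 6.19, 6.16 and 6.02 in I3C livers. With I3C it was below the dark level on every array. It fell by 0.78 ± 0.10 (adjusted p = 0.000527), its second probe set fell by 0.39 ± 0.08 (adjusted p = 0.0119), and the call stayed with the GAPDH difference in the model (-0.95 ± 0.15, adjusted p = 0.013). Slc12a7, a potassium-chloride cotransporter, fell by 0.44 ± 0.07 (adjusted p = 0.00209), while its dimmer probe set differed by 0.05 ± 0.06, and Fxyd1, which modulates the sodium pump, fell by 0.41 ± 0.08 (adjusted p = 0.0122).

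Some bright genes of calcium and sodium handling did not pass, while Fxyd1, at 9.90 in vehicle and 9.50 in I3C livers, fell as given above. Atp2a2, the calcium pump of the endoplasmic reticulum, read 11.25 ± 0.10 and 11.20 ± 0.09, and Atp1b1, a sodium pump subunit, 9.32 ± 0.13 and 9.33 ± 0.15 (SD, n = 5). Of 38 intracellular, store-operated and other cation channels 1 rose, the lysosomal channel Mcoln1 (0.34 ± 0.08, adjusted p = 0.0264), and its call ended without vehicle 1, 3 or 4 or I3C 1, 2, 4 or 5. Of 19 chloride channels 1 fell, Clic4 (-0.32 ± 0.06, adjusted p = 0.0106), whose 3 other probe sets differed by -0.0038 to 0.051. Of 25 regulators of channels 2 fell, the receptors Abcc8 and Abcc9. With the GAPDH difference in the model the calls of Mcoln1, Clic4, Fxyd1 and Slc12a7 ended, the last at an adjusted p of 0.0549. Their differences there were 0.39 ± 0.13, -0.26 ± 0.10, -0.35 ± 0.14 and -0.51 ± 0.11, in the same order and with wider SE than in the main fit. With the beta-actin difference those of Mcoln1 (adjusted p = 0.245) and Clic4 (adjusted p = 0.117) ended, while Fxyd1 (adjusted p = 0.0136) and Slc12a7 (adjusted p = 0.0414) passed. Averaged over its probe sets, Clic4 differed by -0.067 (adjusted p = 0.666).

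Channel genes also carried a mark of single arrays. In vehicle livers, vehicle 5 gave the highest value of its group for 62 of the 113 channel genes that did not pass, or 54.9%, and vehicle 4 the lowest for 43. This was shared with other dim genes: vehicle 5 was highest for 50.6% of all genes at or below the dark level and for 29.1% of those above it. The median of the 113 ran from 5.32 (vehicle 4) to 5.59 (vehicle 5) in vehicle and from 5.38 to 5.55 in I3C arrays, so that the groups overlapped.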

How the data were processed

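The table holds log2 expression values that the authors deposited for 10 arrays, which the submitters' processing notes name as RMA, robust multi-array averaging. RMA makes the arrays' distributions alike and compresses folds near background. Its software is not given in the sources used here. Gene symbols came from GEO's annotation of the platform. Its symbols equalled those of the RefSeq gene table (GRCr8) wherever Entrez IDs matched. Of 31042 probe sets outside the manufacturer's controls, 20826 carry 1 symbol, 436 several and 9780 none here, and 0 of those with several named a channel.

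The group test was two-sided, by lmFit and eBayes without trend in limma 3.58.1 under R 4.3.3. Single array measures were compared by exact permutation over 252 splits, adjusted over 16 measures. Precision is limited by there being 5 arrays a group. Members, reference genes, marker and partner lists were chosen with earlier results of these data known. Text names members that passed or had an unadjusted p under 0.05, the 15 brightest, the brightest of each class, members known in liver or bile duct, and partners that passed. Further genes, such as Cacnb2, Kcnab2, Kcnj10, Scn2b, Cacna1i, Kcnq5, Atp2a2 and Atp1b1, were named after their values were seen. Alternatives covered variance model, replicate block, dim filter, normalisation, array weights, threshold, RNA quality covariates, probe set choice, symbols and each array left out. The fit was tested on simulated arrays.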

Additional observations from a re-analysis of the deposited data

Results flagged for a closer look

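Of 86 groups of 5 values, those of 36 named channel genes and 7 partner genes, 2 held a value far from the other 4, where chance alone flags about 1 in 20. Both were vehicle 5. Kcnk6, a tandem-pore-domain potassium channel, read 7.52 there and 6.96 to 7.08 in the other vehicle livers. Kcnt1, a sodium-activated potassium channel, read 7.46 there and 6.81 to 6.98 in the others. Neither passed the test between the groups.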

How the results depend on the processing

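The rise of 1 channel gene, Scn4b, was called under each alternative run, with differences from 3.81 to 4.26 and adjusted p up to 0.00149, though its entry under the filter on dim genes rests on its I3C arrays. The fall of 1 gene, Kcnj15, was called under each alternative that tested it, with differences from -3.06 to -1.33 and adjusted p up to 0.0441. Its probe set was picked as the brighter one through its vehicle arrays. When only the 22 channel genes above the dark level entered, 0 fell (limma, 0 at an unadjusted p under 0.05), because Kcnj15 has a 10-array mean of 6.03 and was not tested. With 1 array left out, counts stayed at 1 and 1. The count above the dark level was 13 when probe sets were averaged by gene, 3 with the brightest reference gene as limit, and 21 to 28 otherwise. With the replicate number as a block, Scn4b rose by 4.10 ± 0.20 (adjusted p = 4.00e-05) and Kcnj15 fell by 2.76 ± 0.34 (adjusted p = 0.00459). Same-numbered arrays deviated together with correlations from -0.28 to 0.22, so the numbers are not taken as pairs, and the calls of Abcc9 (adjusted p = 0.0556) and Mcoln1 (adjusted p = 0.0726) ended in the block. Of 969 other values of named genes under the alternatives 937 kept their state, called or not called, and 32, all of partner genes, lost a call. Most of the 969 belong to the 36 named channel genes, of which only Scn4b and Kcnj15 had a call to lose. The 937 are therefore no measure of how firm the calls are. Dim signal is a limit, as 92 of the 113 channel genes that did not pass had means at or below the dark level.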

Other observations

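The genes next to Scn4b and Kcnj15 on the rat assembly were followed as well, chosen after the values were seen, with 5 protein-coding genes on each side. Of the 10 around Scn4b 6 were measured and 0 passed limma (0 at an unadjusted p under 0.05). The nearest, Scn2b, another sodium channel beta subunit, differed by 0.08 ± 0.09, and Fxyd6, a sodium pump modulator, by -0.12 ± 0.12. Of the 10 around Kcnj15 all 10 were measured and 1 passed. Of all genes 6.43% passed, and 19.8% had an unadjusted limma p under 0.05. With so few neighbours, neither count is read as a result about these places. Ets2, a transcription factor and the second gene along from Kcnj15, rose from 10.18 to 11.08, by 0.90 ± 0.08 (adjusted p = 7.11e-05). The genes on either side of Kcnj15 were Kcnj6, a G protein-gated potassium channel (-0.05 ± 0.06), and Erg, an endothelial transcription factor (-0.15 ± 0.12), and neither passed.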
